A study of Homo sapiens with 30 samples.

Results

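Nascent transcription after 2 days of the type I arginine methyltransferase inhibitor MS023 was compared with that of untreated cells in A549, a human lung adenocarcinoma line. The comparison takes 2 libraries of cells given 1 µM MS023 for 2 days and 2 libraries of untreated cells, chosen by the names of their columns in the deposited count table, so 4 of the 30 libraries of the series. All 58780 genes of the table were members, and 22919 of them passed the filter on low counts and were tested. The series holds 15 groups of 2 libraries, made by precision run-on sequencing (PRO-seq) of A549 cells given MS023, the PRMT5 inhibitor GSK591 or the glucocorticoid dexamethasone (Dex), each in 0.01% DMSO. The untreated libraries are labelled as 15 min in 0.01% DMSO, so the controls were not kept in DMSO for the 2 days that the treated cells were. Further libraries used below are those of 1 µM GSK591 for 2 days, 1 µM MS023 for 4 or 7 days, and 100 nM Dex for 3 h with no inhibitor, with MS023 given at the same time, or after 7 days of MS023. All cells are 1 line, grown in flasks, and the labels do not say whether the replicates came from separate cultures or days, so p-values measure the spread between these libraries, which may be technical.

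Protein arginine methyltransferases (PRMTs) move methyl groups onto arginine side chains. The type I enzymes, with PRMT1 as the main one in most cells and CARM1, PRMT2, PRMT3, PRMT6 and PRMT8 beside it, leave asymmetric dimethylarginine on histones and on many RNA-binding proteins, often at stretches rich in arginine and glycine. MS023 inhibits the type I enzymes, while PRMT5, the target of GSK591, leaves the symmetric form on some of the same proteins. In PRO-seq, RNA polymerases that are engaged on DNA add a labelled nucleotide to their transcript in permeabilised cells, so the counts follow polymerase on genes rather than stable RNA.

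Genes that rose at 2 days included OASL, IFIT1, IFIT2 and IFIT3, members of the set that interferon switches on through the interferon-stimulated response element (ISRE). Promoter windows of 300 bases (250 before the start site to 50 after it, RefSeq, build GRCh38.p14) are shown for 3 genes of this set that rose at 2 days, IFIT1 (chr10:89392373-89392672), IFIT3 (chr10:89327747-89328046) and ISG15 (chr1:1013247-1013546), and for 2 that were not called at 2 days but were higher at 4 days than at 2, MX1 (chr21:41420308-41420607) and IFI27 (chr14:94110486-94110785). All 5 are on the plus strand and printed 5′ to 3′. Capitals mark matches to the ISRE on either strand, searched as the letters GAAA, any 2 bases and GAAA again.
IFIT1: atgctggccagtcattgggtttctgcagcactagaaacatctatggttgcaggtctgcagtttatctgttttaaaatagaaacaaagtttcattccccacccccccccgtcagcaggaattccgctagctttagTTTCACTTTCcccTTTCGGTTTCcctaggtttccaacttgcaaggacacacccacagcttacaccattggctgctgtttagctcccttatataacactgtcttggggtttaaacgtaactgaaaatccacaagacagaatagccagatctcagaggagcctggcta
IFIT3: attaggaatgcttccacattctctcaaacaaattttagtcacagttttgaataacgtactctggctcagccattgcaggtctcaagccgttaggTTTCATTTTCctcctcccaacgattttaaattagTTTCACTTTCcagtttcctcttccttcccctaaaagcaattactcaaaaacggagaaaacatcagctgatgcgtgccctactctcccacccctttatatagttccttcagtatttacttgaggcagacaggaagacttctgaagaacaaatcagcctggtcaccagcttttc
ISG15: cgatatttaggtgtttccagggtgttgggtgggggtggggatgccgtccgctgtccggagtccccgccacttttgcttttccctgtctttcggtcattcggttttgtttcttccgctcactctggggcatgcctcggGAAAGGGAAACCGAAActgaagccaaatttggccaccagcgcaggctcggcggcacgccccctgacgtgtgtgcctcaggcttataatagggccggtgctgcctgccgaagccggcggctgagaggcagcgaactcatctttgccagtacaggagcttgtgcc
MX1: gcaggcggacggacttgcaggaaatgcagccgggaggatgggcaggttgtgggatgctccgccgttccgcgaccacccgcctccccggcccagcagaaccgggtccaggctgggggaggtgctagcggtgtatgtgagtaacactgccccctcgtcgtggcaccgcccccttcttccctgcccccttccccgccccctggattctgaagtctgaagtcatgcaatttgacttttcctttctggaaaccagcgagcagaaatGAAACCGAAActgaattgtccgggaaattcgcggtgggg
IFI27: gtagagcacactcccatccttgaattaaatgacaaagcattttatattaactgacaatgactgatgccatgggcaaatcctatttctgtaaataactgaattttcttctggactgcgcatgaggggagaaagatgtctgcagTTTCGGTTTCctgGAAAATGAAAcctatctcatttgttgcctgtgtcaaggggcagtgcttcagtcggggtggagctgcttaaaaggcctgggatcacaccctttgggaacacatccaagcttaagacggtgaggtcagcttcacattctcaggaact
The IFIT1, IFIT3 and IFI27 windows hold 2 separate matches each, the ISG15 window 2 that overlap, and the MX1 window 1. These letters are in 3.65% of 27305 promoter windows, in 2.84% of the 13189 windows of tested genes and in 16 of the 28 windows that could be matched to tested interferon-stimulated genes. Of those 28, 4 of the 8 that belong to genes called higher hold a match, as do 12 of the 20 that belong to genes not called. Among these windows the match thus does not separate the genes called higher at 2 days from those not called. Of the 11 genes of this set called higher, 8 had a window, and OASL and IFIT2 had none. Of 943 windows of genes called higher anywhere in the genome, 26 (2.76%) hold it, close to the share of tested genes.

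Total counts were 8441211 and 9360229 in the MS023 libraries and 13069598 and 12438774 in the untreated ones. Mitochondrial genes took 62.2% and 65.0% of these counts after MS023 and 76.0% and 73.4% in untreated cells, which leaves 3135450 to 3314381 nuclear counts per library, nearly equal between the groups. Replicates correlated at r = 0.983 (MS023) and 0.980 (untreated) across 11117 genes on the log2 scale, where genes are not independent replicates. Processed pseudogenes, whose reads are hard to place, took 1.06% and 1.13% of nuclear counts after MS023 and 1.32% and 1.20% in untreated cells. CDKN2A and CDKN2B, which are deleted in A549, had 0 or 1 count in each of the 4 libraries, and the 6 epithelial markers summed to 581 to 597 CPM (counts scaled to library size by TMM, per 1e6). Of these 6, EPCAM (0.95), KRT8 (0.31) and KRT18 (0.37) were called higher at 2 days and KRT7 lower (-0.39), on the log2 scale. The 3 rises were not called in any fit without 1 of the 4 libraries or with DESeq2, and KRT7 was not called without untreated replicate 1 or MS023 replicate 2 and was above 0 with total counts as the only scaling. Markers of other cells had low sums: the 7 fibroblast markers summed to 3.42 to 5.94 CPM, the 9 immune markers to 5.77 to 9.57 CPM and the 5 endothelial markers to 1.01 to 1.85 CPM. Of 9 alveolar type 2 markers, which summed to 17.2 to 23.4 CPM, SFTPA2 was at 0 in all 4 libraries. SFTPA1 and NKX2-1 had at most 3 counts, so these defining markers of that cell type were at or near 0. Only 4 of the 9 could be tested. Of these, 1 was called higher and 0 lower, and 3 were above 0, with a median of 0.71.

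At 2 days, 2381 of the 22919 genes (10.4%) differed from untreated cells at an adjusted p below 0.05 in edgeR's quasi-likelihood test (p-values adjusted by Benjamini-Hochberg), and are termed called. Of these, 1416 genes (6.18% of those tested) were higher and 965 (4.21%) lower. These shares are the background for the counts of members given for each gene group. The gene lists were chosen with earlier results of these data known, so their shares are descriptive and not a test. Among them, interferon-stimulated, fibrinogen, amino acid stress, NRF2, immediate-early and lineage genes had rises at several times the background share. So did Wnt and growth factor (9 of 26), glucocorticoid-induced (7 of 21) and histone genes (5 of 20). Falls were found for hnRNP genes and mitochondrial messages, as the plot of called members by list shows. Fold changes are relative to the typical gene: TMM scaling set the median log2 fold change of all genes to 0.00, and with total counts as the only scaling it was 0.68, with 9154 genes higher and 74 lower. Each fall below is thus a fall relative to most genes. Below, brackets after a lost call name the library left out, then the range of the log2 fold change over the 4 fits. Leaving out 1 of the 4 libraries gave 964 (without untreated replicate 1), 1059 (without MS023 replicate 1), 1193 (without MS023 replicate 2) and 1261 (without untreated replicate 2) calls in place of 2381, DESeq2 gave 1344 and a fit of the 2 groups alone 3952.

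**Figure D1:**
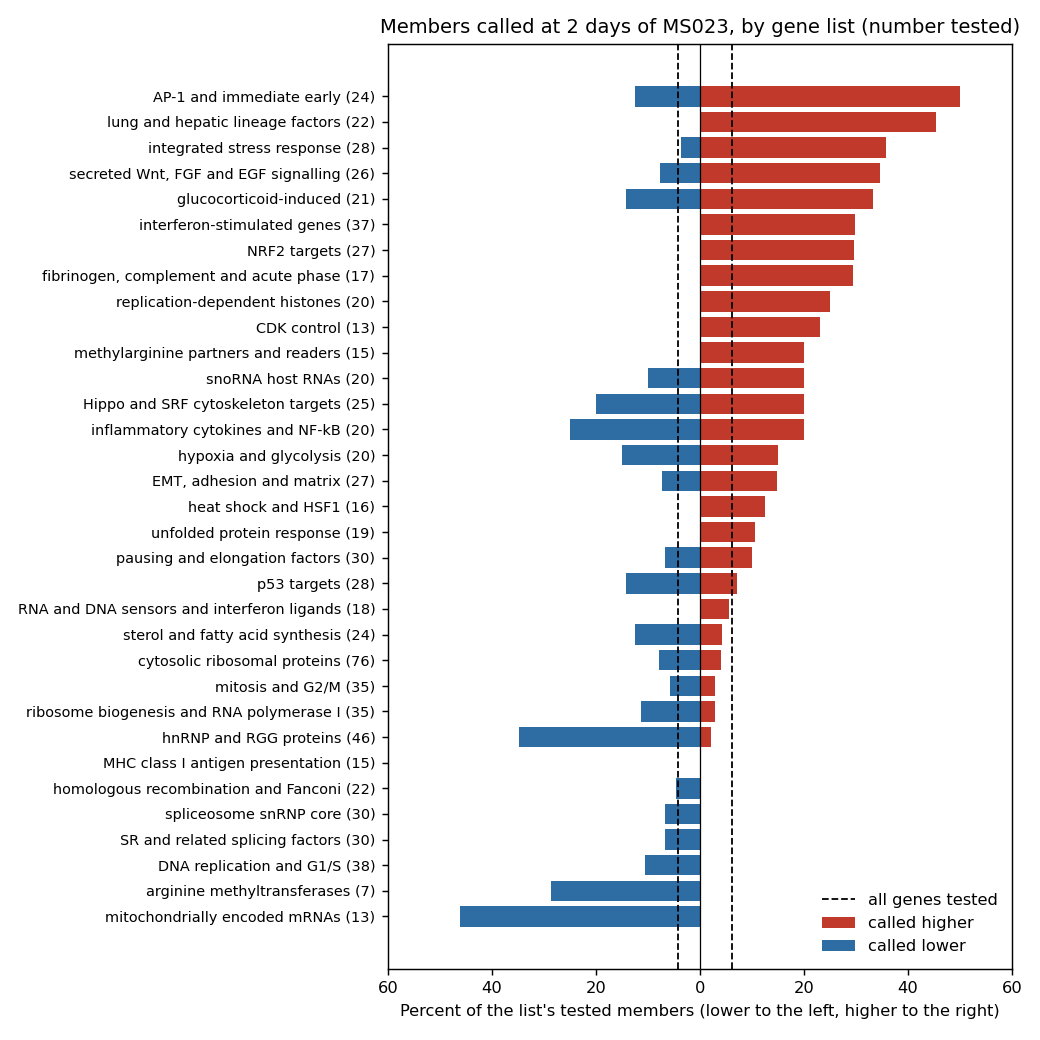
Share of each list's tested members called higher (red, right) or lower (blue, left) after 2 days of MS023, with the number tested in brackets; dashed lines mark all genes tested (6.18% higher, 4.21% lower). Lists of cell type markers are not drawn, and the lists were chosen with earlier results of these data known. Of the lists drawn, AP-1 and lineage genes reach the highest shares on the right and mitochondrial messages and hnRNP genes on the left. With total counts as the only scaling no hnRNP or mitochondrial gene is called lower, though mitochondrial counts make up most of that total.

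No gene of the PRMT family was called higher. Of 7 PRMT genes that could be tested, 0 were called higher and 2 lower. PRMT1 stood at 56.2 and 55.8 CPM in untreated cells and 44.1 and 45.6 after MS023 (log2 fold change -0.32, SE 0.11, adjusted p = 0.0463), and PRMT3, a cytosolic type I enzyme that acts on a ribosomal protein, at 20.6 and 22.3 CPM untreated and 13.2 and 16.8 CPM treated (log2 fold change -0.51, SE 0.14, adjusted p = 0.0133). The untreated libraries were above both MS023 libraries for each. PRMT1 lies near the threshold: its call was lost in other fits (without any 1 of the 4 or with DESeq2 or with no filter on low counts, -0.35 to -0.31), and that of PRMT3 in some fits (without untreated replicate 2 or MS023 replicate 1, -0.70 to -0.36). Neither PRMT gene was lower with total counts as the only scaling. Values were -0.32 for PRMT2, 0.25 for CARM1, -0.23 for PRMT5, -0.09 for PRMT7 and -0.33 for PRMT9, none of them called. PRMT6 and PRMT8 had 0 to 2 counts per library and were not tested. Of 15 partners and readers of methylarginine, 3 rose and none fell: BTG1 (0.92), an antiproliferative protein that binds PRMT1, JMJD6 (0.77) and DDAH2 (0.68), of the family that breaks down free dimethylarginine. The DDAH2 call was lost without 1 library (without MS023 replicate 1, 0.50 to 0.83).

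The largest rises among protein-coding genes with at least 5 CPM on average were led by OASL, FGA, AXIN2 and IFIT2. OASL (chr12:121019111-121039242 in GENCODE 29 on hg38), an antiviral gene of the oligoadenylate synthetase family, had 1.22 and 0.806 CPM in untreated cells and 10.8 and 9.41 after MS023 (log2 fold change 3.31, SE 0.34, adjusted p = 1.12e-09). FGA (chr4:154583126-154590766), the fibrinogen alpha chain, went from 2.45 and 2.42 to 20.3 and 19.8 CPM (log2 fold change 3.04, SE 0.20, adjusted p = 1.04e-15). AXIN2 (chr17:65528563-65561647), a negative regulator and target of Wnt signalling, had 1.89 and 1.81 CPM untreated and 11.0 and 9.23 CPM treated (log2 fold change 2.44, SE 0.28, adjusted p = 8.85e-09). For IFIT2 (chr10:89283694-89309276), which binds viral RNA, the values were 1.67 and 1.81 CPM untreated and 6.94 and 10.4 CPM treated (log2 fold change 2.31, SE 0.30, adjusted p = 1.64e-07). In these 4 genes both treated libraries lay above both untreated ones, as the rule that named them required, and no fit without 1 library ended a call.

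Other genes of the 12 largest rises followed. EBF4, a transcription factor, had 2.78 and 4.23 CPM in untreated cells and 14.4 and 15.0 after MS023 (log2 fold change 2.05, SE 0.23, adjusted p = 5.87e-09). NEU1, a lysosomal sialidase, had 4.67 and 2.62 CPM untreated and 15.0 and 12.7 CPM treated (log2 fold change 1.94, SE 0.24, adjusted p = 5.32e-08). CEBPB, a transcription factor of stress and acute-phase genes, was the most highly transcribed of them, at 35.0 and 32.1 CPM untreated and 109 and 108 CPM treated (log2 fold change 1.69, SE 0.13, adjusted p = 1.89e-13). The stress protein NUPR1 had 4.89 and 5.74 CPM untreated and 17.6 and 18.6 CPM treated (log2 fold change 1.76, SE 0.19, adjusted p = 7.05e-09). Rises of 1.79 (FGF18, a fibroblast growth factor), 1.68 (TNXB, a matrix protein) and 1.65 (TDRD12, a Tudor-domain protein of the piRNA pathway) on the log2 scale were next. Both MS023 libraries exceeded both untreated ones in each, as they had to by the rule that named these genes.

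**Figure D2:**
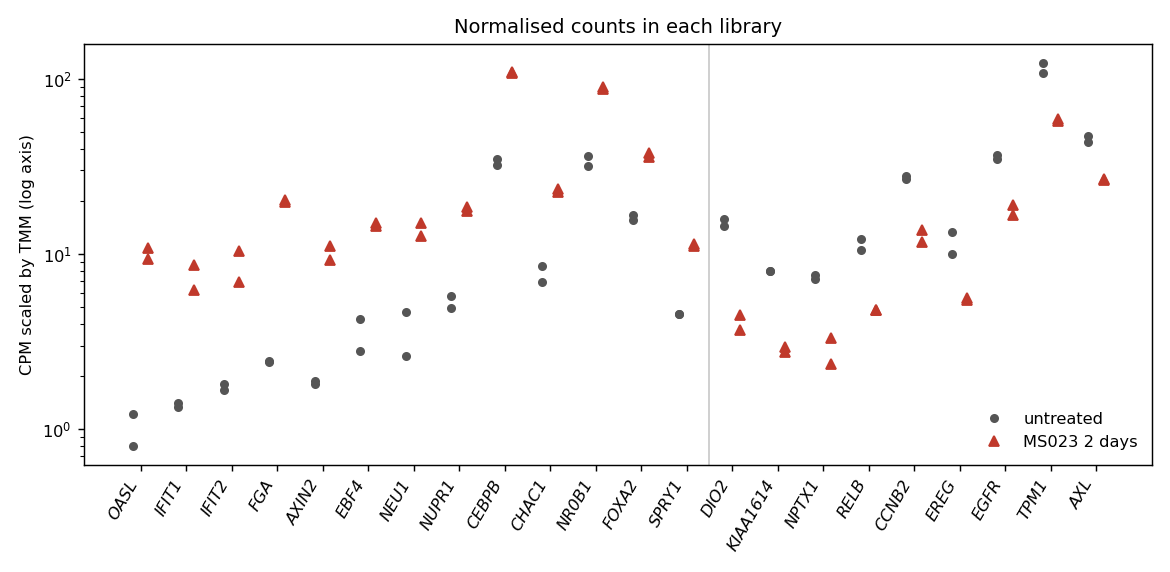
CPM scaled by TMM on a log axis in the 2 untreated (grey circles) and the 2 MS023 libraries (red triangles), for 13 genes that rose (left) and 9 that fell (right). The groups do not overlap for any of the 22 genes, which were picked among called genes, many by a rule that required this.

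The largest falls were smaller than the largest rises. TBC1D10C went from 7.34 and 8.87 to 2.25 and 2.03 CPM (log2 fold change -1.92, SE 0.28, adjusted p = 2.35e-06), and DIO2 (chr14:80197527-80387757), the deiodinase that activates thyroid hormone, from 14.5 and 15.8 to 4.50 and 3.69 CPM (log2 fold change -1.89, SE 0.22, adjusted p = 1.76e-08). KIAA1614 had 8.01 and 7.96 CPM in untreated cells and 2.93 and 2.77 after MS023 (log2 fold change -1.48, SE 0.25, adjusted p = 2.78e-05), and NPTX1, a neuronal pentraxin, 7.56 and 7.15 CPM untreated and 2.35 and 3.32 CPM treated (log2 fold change -1.37, SE 0.26, adjusted p = 2.51e-04). The gel-forming mucin gene MUC6 had 54.1 and 32.5 CPM untreated and 16.4 and 15.3 CPM treated (log2 fold change -1.44, SE 0.17, adjusted p = 6.85e-07), with untreated libraries that differed from each other more than the MS023 libraries did. The remaining named falls were SEZ6 (-1.39), ATP6V0C (-1.38), a subunit of the vacuolar proton pump, EMC7 (-1.36), of a membrane protein insertion complex, and 4 genes with wide replicate spread over the series: CLSPN (-1.55, SE 0.39), a replication checkpoint protein, EIF5B (-1.46, SE 0.41), a translation initiation factor, SYNE1 (-1.46, SE 0.41), a nuclear envelope protein, and COL5A2 (-1.40, SE 0.40), a collagen. Calls of the last 4 were lost in other fits: CLSPN (without untreated replicate 1 or MS023 replicate 1 or MS023 replicate 2, -1.71 to -1.38), EIF5B (without untreated replicate 1 or MS023 replicate 1 or MS023 replicate 2 or with no filter on low counts, -1.74 to -1.13), SYNE1 (without any 1 of the 4 or with no filter on low counts, -1.61 to -1.28) and COL5A2 (without any 1 of the 4 or with no filter on low counts, -1.47 to -1.34). Of the 24 largest changes, 11 genes overlap another annotated gene, 4 of them (ATP6V0C, AXIN2, IFIT2 and TNXB) on the same strand, and the use of strand in counting is not stated, so reads of the partners cannot be told apart.

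A minority of interferon-stimulated genes was called higher, though most lay above 0. Of the 37 tested, 33 had a log2 fold change above 0, beside 11554 of all 22919 genes. Of 37 tested, 11 were called higher (8 with DESeq2) and none lower, a share of 29.7% beside 6.18% of all genes, and the list's median log2 fold change was 0.45 against 0.00. IFIT1, a sensor of viral RNA caps and the neighbour of IFIT2 and IFIT3 on chromosome 10, went from 1.33 and 1.41 to 6.26 and 8.68 CPM (log2 fold change 2.43, SE 0.30, adjusted p = 8.27e-08). IFIT3, its partner protein, had 2.11 and 3.32 CPM untreated and 6.45 and 7.48 CPM treated (log2 fold change 1.34, SE 0.30, adjusted p = 0.00176), and ISG15, a ubiquitin-like modifier, 2.22 and 2.82 CPM untreated and 6.45 and 5.54 CPM treated (log2 fold change 1.24, SE 0.29, adjusted p = 0.00318). Smaller rises were called for HERC6 (1.29), PARP9 (1.09), IFITM2 (0.88), the transcription factor subunit IRF9 (0.83), the exonuclease ISG20 (0.67) and the transcription factor IRF1 (0.45). The other 26 were not called. OAS3, an oligoadenylate synthetase, had a log2 fold change of 0.22 and MX1, an antiviral GTPase, 0.79, while IFI27 had 2.22 and 2.62 CPM untreated and 2.35 and 2.49 CPM treated. Interferon genes themselves had almost no counts, with IFNB1 at 0 in all 4 libraries, IFNL1 at 0 and 2 in untreated cells and 0 and 5 after MS023, and IFNL2 and IFNL3 at 0 or 1. Among 18 tested sensors and signalling genes, STING1, the adaptor of cytosolic DNA sensing, was the 1 called (1.78 and 0.806 CPM in untreated cells and 3.91 and 3.51 after MS023, log2 fold change 1.53, SE 0.42, adjusted p = 0.0114), while RIGI (0.04), MAVS (0.29) and CGAS (0.06) were not. None of 15 antigen presentation genes of the MHC class I pathway was called, with B2M at 0.51 and HLA-C at 0.25. Many of these genes had few counts. Calls were lost for IFIT3 (without untreated replicate 1, 1.06 to 1.72), ISG15 (without untreated replicate 1 or MS023 replicate 1, 1.08 to 1.43), HERC6 (without untreated replicate 1 or MS023 replicate 1, 0.80 to 1.75), PARP9 (without untreated replicate 2 or MS023 replicate 2 or with DESeq2, 0.84 to 1.36), IFITM2 (without untreated replicate 2 or MS023 replicate 2, 0.73 to 1.00), IRF9 (without any 1 of the 4 or with DESeq2 or with no filter on low counts, 0.69 to 0.98), ISG20 (without MS023 replicate 1, 0.55 to 0.78), IRF1 (without untreated replicate 1 or untreated replicate 2 or MS023 replicate 1 or with DESeq2, 0.29 to 0.60) and STING1 (without untreated replicate 2 or MS023 replicate 1, 1.06 to 2.18). Without untreated replicate 1 the STING1 value was 2.18. With DESeq2 none of the 18 sensors and signalling genes was called, STING1 included, where a gene with no adjusted p counts as not called.

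All 3 fibrinogen chains, which share a gene cluster on chromosome 4 and are made mainly by liver, were higher. Beside FGA, FGB had 0.667 and 0.302 CPM in untreated cells and 2.25 and 3.14 after MS023 (log2 fold change 2.47, SE 0.53, adjusted p = 9.71e-04), and FGG 0.556 and 0.101 CPM untreated and 2.93 and 2.58 CPM treated (log2 fold change 3.07, SE 0.74, adjusted p = 0.00723). Both stand on few reads: FGG had 5 and 1 counts in untreated cells and 30 and 28 after MS023, and FGB 6 and 3 against 23 and 34. Of the 17 tested genes in the list of fibrinogen, complement and acute-phase genes, 5 were higher and none lower, with a median of 0.75. The other 2 were FGL1 (1.59), a fibrinogen-like hepatokine, and CP (2.67 and 2.32 CPM untreated and 5.77 and 6.46 CPM treated, log2 fold change 1.30, SE 0.24, adjusted p = 2.03e-04), the copper carrier ceruloplasmin. The complement genes C1R (0.14), C1S (0.10) and CFB (0.05) were not called. With DESeq2, 2 of the 17 list members were called higher and none lower, so the 3 fibrinogen chains were not all called there. A gene to which DESeq2 gave no adjusted p counts as not called there, so this need not mean a failed test. Without untreated replicate 1 FGG was at 4.62 and FGB at 3.11. Without untreated replicate 2 FGG was at 2.29, with its call lost. Ends of calls were FGB (without untreated replicate 2, 2.00 to 3.11), FGG (without untreated replicate 2 or MS023 replicate 1, 2.29 to 4.62) and FGL1 (without any 1 of the 4 or with DESeq2, 1.26 to 1.97).

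In the list of endodermal and lung lineage genes, mostly transcription factors, 10 of 22 tested members were higher (45.5%), none lower and 12 not called, with a list median of 0.41. FOXA2 (chr20:22581005-22585455), a pioneer factor of liver and lung, had 15.6 and 16.7 CPM in untreated cells and 35.6 and 37.5 after MS023 (log2 fold change 1.18, SE 0.13, adjusted p = 1.09e-08). Its relative FOXA3 had 0.556 and 1.31 CPM untreated and 5.48 and 4.52 CPM treated (log2 fold change 2.38, SE 0.37, adjusted p = 1.00e-05), while FOXA1 was at 0.14 and not called. Of the SOX family, SOX4 was at 32.4 and 35.6 CPM untreated and 64.2 and 61.6 CPM treated (log2 fold change 0.89, SE 0.12, adjusted p = 3.84e-07), SOX9 rose by 0.82 and SOX2, at 1.67 to 5.63 CPM, by 1.48. The epithelial factors ELF3 (0.50), EHF (1.61) and KLF5 (0.42), CEBPA (0.52), and the airway mucin gene MUC5B (15.5 and 13.0 CPM untreated and 23.1 and 24.7 CPM treated, 0.75) made up the rest. HNF4A (0.09), a hepatic nuclear receptor, was not called. Without untreated replicate 2, which had the higher untreated value of both genes, FOXA3 was at 3.14 and EHF at 2.51. Calls lost were those of SOX2 (without untreated replicate 1 or MS023 replicate 2, 1.28 to 1.63), EHF (without untreated replicate 1 or MS023 replicate 1 or with DESeq2, 1.10 to 2.51), KLF5 (without untreated replicate 1 or MS023 replicate 1 or MS023 replicate 2 or with DESeq2, 0.24 to 0.63), CEBPA (without any 1 of the 4, 0.41 to 0.61) and MUC5B (without untreated replicate 2 or MS023 replicate 1 or MS023 replicate 2, 0.63 to 0.88).

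In the integrated stress response, in which ATF4 drives genes of amino acid supply, 10 of 28 members were higher and 1 lower, with a median of 0.38. CHAC1, which degrades glutathione and is a textbook ATF4 target, went from 6.90 and 8.56 to 23.5 and 22.7 CPM (log2 fold change 1.57, SE 0.16, adjusted p = 1.14e-09). Its promoter window (chr15:40953221-40953520, plus strand, RefSeq, GRCh38.p14) is shown because CHAC1 was the 1 called gene of the list whose window holds the amino acid response element letters TGATGNAA, on the reverse strand here and in capitals.
CHAC1: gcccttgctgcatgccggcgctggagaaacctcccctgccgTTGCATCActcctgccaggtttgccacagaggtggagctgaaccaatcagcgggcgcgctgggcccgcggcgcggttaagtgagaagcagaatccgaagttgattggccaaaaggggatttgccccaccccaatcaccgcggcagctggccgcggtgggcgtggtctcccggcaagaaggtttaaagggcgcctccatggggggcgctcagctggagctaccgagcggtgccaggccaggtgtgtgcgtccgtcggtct
Those letters are in 3.67% of all windows, in 1.81% of the windows of tested genes and in 4 of 22 matched windows of the list, 1 of 7 that belong to genes called higher and 3 of 14 that belong to genes not called. The mTOR inhibitor gene DDIT4 had 138 and 149 CPM untreated and 261 and 250.1 CPM treated (log2 fold change 0.83, SE 0.10, adjusted p = 6.73e-08), the glutamine carrier SLC1A5 17.8 and 19.4 CPM untreated and 37.9 and 32.6 CPM treated (log2 fold change 0.92, SE 0.13, adjusted p = 8.38e-07) and SLC38A2, another amino acid carrier, 63.5 and 62.4 CPM untreated and 101 and 117 CPM treated (log2 fold change 0.79, SE 0.11, adjusted p = 4.25e-07). TRIB3, which restrains ATF4 signalling, rose by 0.59. ATF4 itself (0.17), DDIT3 (-0.22) and the asparagine synthetase gene ASNS (0.50) were not called. Of 19 genes of the unfolded protein response 2 were called, HERPUD1 (0.60) and DNAJB9 (0.79), both of the endoplasmic reticulum, and the chaperone gene HSPA5 stayed at -0.06. The DNAJB9 call was not stable (without untreated replicate 1 or MS023 replicate 1 or MS023 replicate 2, 0.57 to 1.07).

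Targets of NRF2, the regulator of the oxidative stress response, were higher in 8 of 27 cases and lower in none, with a median of 0.29. NR0B1, a repressor receptor that is high in lung cancers with an active NRF2 pathway, had 31.8 and 36.2 CPM in untreated cells and 87.7 and 89.9 after MS023 (log2 fold change 1.38, SE 0.13, adjusted p = 6.22e-11). The aldo-keto reductases AKR1C1 (163 and 148 CPM untreated and 329 and 332 CPM treated, log2 fold change 1.09, SE 0.25, adjusted p = 0.0110), AKR1C2 (0.93) and AKR1C3 (0.74) are near-identical neighbours whose reads can be shared, so they count as less than 3 observations. TXNRD1 (-0.17), NQO1 (0.79) and HMOX1 (0.25) were not called. NQO1 was called with DESeq2 (adjusted p = 0.0241) and with the share of processed pseudogenes as a covariate (adjusted p = 8.20e-09 in edgeR's test), where 14 of the 27 targets were higher and none lower. Lost calls were AKR1C1 (without any 1 of the 4, 1.02 to 1.16), AKR1C2 (without untreated replicate 2 or MS023 replicate 2, 0.80 to 1.07) and AKR1C3 (without MS023 replicate 2, 0.64 to 0.81).

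In Wnt, fibroblast growth factor and epidermal growth factor signalling, 9 of 26 members were higher and 2 lower. Beside AXIN2, the Wnt receptor genes FZD2 (18.1 and 20.3 CPM untreated and 34.2 and 36.2 CPM treated, log2 fold change 0.87, SE 0.15, adjusted p = 2.87e-05) and FZD7 (0.96) and the secreted Wnt antagonist DKK1 (53.7 and 58.3 CPM untreated and 98.5 and 103 CPM treated, log2 fold change 0.84, SE 0.11, adjusted p = 3.29e-07) rose. SPRY1, an inhibitor of receptor tyrosine kinase signalling, had 4.56 and 4.53 CPM untreated and 11.1 and 11.4 CPM treated (log2 fold change 1.30, SE 0.20, adjusted p = 5.33e-06), and PHLDA1 rose by 0.86. The SPRY1 relatives SPRY2 (0.27), SPRY4 (0.13) and SPRED1 (0.21) were not called. The 2 that fell were the receptor gene EGFR, at 36.6 and 35.0 CPM in untreated cells and 19.0 and 16.8 after MS023 (log2 fold change -1.0005, SE 0.14, adjusted p = 5.08e-07), and its ligand gene EREG, at 13.3 and 9.97 CPM untreated and 5.57 and 5.45 CPM treated (log2 fold change -1.08, SE 0.21, adjusted p = 2.57e-04). The related receptor ERBB2 was at 0.11 and the ligand AREG at -0.03, neither called. EGFR and EREG were not called with total counts as the only scaling.

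Of 24 immediate-early genes 12 rose and 3 fell, with a median of 0.42. The AP-1 subunits moved in different directions: JUND had 48.3 and 48.5 CPM untreated and 82.4 and 91.4 CPM treated (log2 fold change 0.85, SE 0.12, adjusted p = 2.11e-06), whereas JUN had 49.9 and 57.3 CPM untreated and 32.5 and 30.9 CPM treated (log2 fold change -0.76, SE 0.12, adjusted p = 2.00e-05). FOSL1 was lower too (-0.52). ZFP36, which destabilises cytokine messages, had 56.8 and 55.4 CPM untreated and 105 and 98.4 CPM treated (log2 fold change 0.86, SE 0.11, adjusted p = 2.60e-07), the phosphatase gene DUSP4 rose by 0.61 and IER2 by 0.59. MYC (0.21) and ATF3 (0.41) were not called. Cytokine and NF-kB genes were split, with 4 higher and 5 lower of 20. The noncanonical NF-kB subunit genes RELB (12.2 and 10.5 CPM untreated and 4.79 and 4.80 CPM treated, log2 fold change -1.24, SE 0.23, adjusted p = 1.18e-04) and NFKB2 (39.4 and 36.4 CPM untreated and 22.6 and 23.3 CPM treated, log2 fold change -0.72, SE 0.13, adjusted p = 7.33e-05) fell while CXCL1, a neutrophil attractant (0.96), and NFKBIZ, a nuclear regulator of NF-kB (0.53), rose. RELA (0.03) and NFKB1 (-0.11) were not called. The FOSL1 call was lost in fits with fewer libraries (without any 1 of the 4, -0.58 to -0.47).

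Among targets of Hippo and SRF, which respond to cell shape, 5 of 25 rose and 5 fell. TPM1, an actin-binding tropomyosin, had 123 and 108 CPM untreated and 57.6 and 59.0 CPM treated (log2 fold change -0.99, SE 0.12, adjusted p = 8.27e-08), the receptor kinase gene AXL 46.9 and 43.8 CPM untreated and 26.3 and 26.7 CPM treated (log2 fold change -0.78, SE 0.11, adjusted p = 1.50e-06), and TAGLN2 fell by 0.75. By contrast ACTB, beta-actin, rose from 127 and 128 to 188 and 196 CPM (log2 fold change 0.59, SE 0.11, adjusted p = 2.62e-04), YAP1, the Hippo effector, rose by 0.82 and AJUBA by 0.59. The Hippo targets CCN1 (0.06) and CCN2 (0.09) were not called. In the list of adhesion and matrix genes 4 of 27 rose and 2 fell. TGFB1, the growth factor, rose by 0.77, SNAI1 by 0.96 and CLDN2 by 0.82, while the matrix genes TGFBI (-0.77) and COL4A1 (-1.08) fell. VIM (0.02) and CDH1 (0.20) were not called. COL4A1 lost its call in some fits (without untreated replicate 1 or MS023 replicate 2, -1.24 to -0.90). TPM1, AXL, TAGLN2, TGFBI and COL4A1 were not called with total counts as the only scaling.

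Many RNA-binding proteins with arginine-glycine stretches are known substrates of type I enzymes. Of 46 hnRNP and related genes 16 fell, 1 rose and 29 were not called (34.8% lower beside 4.21% of all genes), with a median of -0.39. Scaled by total counts only, 12 were called higher and none lower, with a median of 0.28, so this is a fall relative to other nuclear genes. HNRNPA1 had 94.2 and 92.0 CPM untreated and 66.2 and 72.8 CPM treated (log2 fold change -0.42, SE 0.10, adjusted p = 0.00210) and HNRNPA3 56.8 and 49.6 CPM untreated and 24.2 and 28.7 CPM treated (log2 fold change -1.0043, SE 0.20, adjusted p = 0.00223). Larger and noisier falls were those of HNRNPA2B1 (440.1 and 344 CPM untreated and 162 and 186 CPM treated, log2 fold change -1.17, SE 0.27, adjusted p = 0.0121) and TAF15 (197 and 166 CPM untreated and 79.4 and 86.2 CPM treated, log2 fold change -1.13, SE 0.25, adjusted p = 0.00934). PABPN1, the nuclear poly(A)-binding protein, rose (0.39). The share of processed pseudogenes, given above, was higher in the untreated libraries than after MS023, and these genes have many such copies. With that share as a covariate, an alternative chosen after seeing the data, 17 of the 46 were lower and 1 higher, with a median of -0.26. Whether the placing of reads among copies had a part in the falls was not tested beyond this. Calls lost in fits with fewer libraries were HNRNPA1 (without MS023 replicate 1, -0.50 to -0.36), HNRNPA2B1 (without untreated replicate 1 or MS023 replicate 1 or MS023 replicate 2, -1.34 to -0.98), TAF15 (without untreated replicate 1 or MS023 replicate 1 or MS023 replicate 2, -1.24 to -1.01) and PABPN1 (without untreated replicate 1 or MS023 replicate 1, 0.33 to 0.47).

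Other RNA-processing and ribosome groups had called shares from 6.67% to 30.0%, beside 10.4% of all genes. Of 30 SR and related splicing genes 2 fell, SRSF7 (-0.39) and LUC7L (-0.41), and of 30 snRNP core genes 2 fell, SF3A2 (-0.82) and SNRPG (-0.61). Among 76 cytosolic ribosomal protein genes 3 rose and 6 fell (11.8%), within 0.68 of 0 on the log2 scale and with a median of -0.11. Of 35 genes of ribosome biogenesis and RNA polymerase I, 1 rose and 4 fell (14.3%). The median was -0.18 for SR genes, with 5 of 30 above 0, and -0.29 for snRNP core genes, with 2 of 30 above 0. For ribosome biogenesis it was -0.25, with 5 of 35 above 0. Scaled by total counts only, the lists' medians were above 0. They were 0.48 for SR genes, 0.38 for snRNP core genes, 0.42 for ribosome biogenesis and 0.55 for ribosomal proteins. Host genes of small nucleolar RNAs had the highest share of these groups, with 4 of 20 higher and 2 lower (30.0%), from SNHG19 (38.3 and 38.5 CPM untreated and 64.3 and 60.1 CPM treated, log2 fold change 0.70, SE 0.11, adjusted p = 2.03e-05) to SNHG9 (9.57 and 11.2 CPM untreated and 3.52 and 4.25 CPM treated, log2 fold change -1.42, SE 0.23, adjusted p = 1.87e-05). Calls of SRSF7 (without untreated replicate 1 or MS023 replicate 1, -0.56 to -0.24) and LUC7L (without any 1 of the 4, -0.45 to -0.38) were not stable.

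Proliferation genes were called about as often as all genes, but most lay below 0. Of 38 DNA replication genes 11 were above 0, with a median of -0.21, and of 35 mitotic genes 7, with a median of -0.29. With total counts as the only scaling these medians were 0.46 and 0.38. Beside 10.4% of all genes called and 4.21% called lower, none of the replication genes rose and 4 fell (10.5%). Of the mitotic genes 1 rose and 2 fell (8.57%). The largest was CCNB2, a mitotic cyclin, at 26.9 and 28.0 CPM in untreated cells and 13.7 and 11.6 after MS023 (log2 fold change -1.12, SE 0.15, adjusted p = 4.58e-07), although CCNB1 was at -0.31 and not called. RRM2, a subunit of ribonucleotide reductase, had 52.7 and 56.6 CPM untreated and 36.6 and 36.1 CPM treated (log2 fold change -0.59, SE 0.11, adjusted p = 2.24e-04), and the survivin gene BIRC5 fell by 0.57. CENPA, the centromeric histone, was the 1 called higher (0.78). CDKN1A, the p21 gene and main p53 target, was at 0.21 and MDM2 at -0.14, neither called, and of 28 p53 targets 2 rose and 4 fell. GDF15, a stress cytokine in that list and under other control too, had 45.5 and 52.5 CPM untreated and 95.5 and 106 CPM treated (log2 fold change 1.04, SE 0.12, adjusted p = 5.87e-09). The inhibitor gene CDKN1C, p57, rose on few reads, from 3.11 and 0.907 to 6.26 and 7.20 CPM (log2 fold change 1.77, SE 0.38, adjusted p = 0.00326), and was at 2.88 without untreated replicate 1 and at 1.11 without untreated replicate 2, where its call was lost. BIRC5 lost its call too (without MS023 replicate 2, -0.66 to -0.49).

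Replication-dependent histone genes were all above 0, from 0.11 to 0.49 on the log2 scale over 20 tested. Of these 5 were called higher (25.0%), beside 6.18% of all genes. The share was 27.1% of the 343 protein-coding genes with 1 block of exons and at least 2 CPM, the class of H3C10. H3C10 had 48.8 and 55.2 CPM in untreated cells and 66.2 and 76.0 after MS023 (log2 fold change 0.45, SE 0.12, adjusted p = 0.00883). Against GSK591 at the same time, 14 of the 20 were called, and H3C10 differed by 0.88 (adjusted p = 3.76e-06). Against untreated cells the list's median was 0.36 with MS023 and -0.31 with GSK591. The H3C10 call was lost in some fits (without untreated replicate 1 or MS023 replicate 2, 0.34 to 0.54). Histone gene copies are near-identical, so their reads can be shared.

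Sterol, hypoxia and heat shock genes were split or mostly not called. Of 24 sterol and fatty acid genes 1 rose and 3 fell, with CYP51A1, a cholesterol synthesis enzyme, at 10.3 and 12.6 CPM untreated and 4.79 and 5.45 CPM treated (log2 fold change -1.16, SE 0.21, adjusted p = 1.34e-04). Of 20 hypoxia and glycolysis genes 3 rose and 3 fell, from ADM, a vasodilator peptide (0.81), to KDM3A, a histone demethylase (-0.81). Of 16 heat shock genes 2 rose and none fell.

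Without any Dex, glucocorticoid-induced genes differed from untreated cells in both directions, 7 of 21 higher and 3 lower. CEBPD, a transcription factor, had 44.6 and 47.2 CPM untreated and 102 and 100.2 CPM treated (log2 fold change 1.14, SE 0.16, adjusted p = 4.15e-05), KLF9 rose by 1.18 and the kinase gene SGK1 by 0.72. ANGPTL4, a regulator of lipoprotein lipase, fell from 24.5 and 25.7 to 14.8 and 13.4 CPM (log2 fold change -0.83, SE 0.13, adjusted p = 1.24e-05). The receptor gene NR3C1 (0.29) and FKBP5 (0.56), a standard reporter of receptor activity, were not called. Among 30 factors of polymerase pausing and elongation, HEXIM1, the inhibitor of the elongation kinase P-TEFb, had 95.1 and 86.6 CPM untreated and 156 and 152 CPM treated (log2 fold change 0.76, SE 0.11, adjusted p = 2.11e-06), and CDK9 (0.34) and the pausing factor gene SUPT5H (-0.18) were not called.

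Of 13 mitochondrial messages 6 were called lower, and the library shares above were lower too. The 13 values lay between -1.04 and -0.69, with a median of -0.83. ND1 had 78900.0 and 69161 CPM in untreated cells and 32407 and 39627 after MS023 (log2 fold change -1.04, SE 0.25, adjusted p = 0.00381). They come from long shared transcripts and take most of the counts, so they are not independent of each other or of the scaling. None was called with total counts as the only scaling, and the median was -0.14. Mitochondrial counts make up most of that total, so this scaling cannot decide whether these messages fell. The ND1 call was lost once (without MS023 replicate 1, -1.20 to -0.91).

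Among noncoding genes the 3 largest rises were AC116025.2 (2.67 and 2.02 CPM untreated and 7.14 and 8.21 CPM treated, log2 fold change 1.72, SE 0.26, adjusted p = 5.77e-06), AC027117.2 (1.70) and the microRNA gene MIR6724-3 (14.7 and 13.8 CPM untreated and 52.6 and 40.9 CPM treated, log2 fold change 1.71, SE 0.31, adjusted p = 0.00189). MIR6724-3 lies in a ribosomal DNA repeat on chromosome 21 (chr21:8388362-8388453), and its 3 copies there rose alike, by 1.48 to 1.68. In the same repeats the transcripts FP671120.1 (337 and 299 CPM untreated and 74.7 and 88.6 CPM treated, log2 fold change -1.96, SE 0.17, adjusted p = 6.73e-08) and FP236383.1 (-1.93) were the largest falls besides the pseudogene HNRNPA3P5 (-2.08), and the 5.8S ribosomal RNA gene RNA5-8SN2 was at 939.8 and 986 CPM untreated and 1107 and 651 CPM treated, with replicates that overlap. These repeats are near-identical and their copies had nearly equal counts, so each set is 1 uncertain observation. HNRNPA3P5 had a wide spread and lost its call (without untreated replicate 1 or MS023 replicate 1 or MS023 replicate 2, -2.22 to -1.93). Of 62 small nuclear RNA genes 11 were higher and none lower, among them the U1 gene RNU1-1 with 240 and 254 counts in untreated cells and 487 and 522 after MS023 (log2 fold change 0.87, SE 0.13, adjusted p = 6.61e-06), though U1 copies are near-identical too.

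Short genes rose more often than long ones. In 5 equal bins of 12236 protein-coding genes with at least 2 CPM, 15.4% of the shortest bin (207 to 9856 bases) were higher and 4.86% lower, against 6.05% and 5.48% of the longest bin (91092 bases and more). The median log2 fold change fell from 0.11 in the shortest bin to -0.06 in the longest. Of 343 genes with 1 block of exons, 93 were higher (27.1%) and 20 lower. Shares had the same order against GSK591 at 2 days, where 5.92% of the shortest bin were higher and 0.817% of the longest, and 65 of the 343 genes were higher and 3 lower. From 2 to 4 days it turned, with 7.35% of the shortest bin lower and 2.82% higher. At 4 days against untreated cells 15.2% of the shortest bin were still higher and 8.74% lower, against 7.89% and 8.17% of the longest, and 73 of the 343 genes were higher and 27 lower. GSK591 against untreated cells had 6.29% of the shortest bin higher and 4.45% lower, against 3.47% and 2.41% of the longest, and 18 of the 343 genes higher and 24 lower. These 4 contrasts share libraries with the main one. Where no library is shared, after 7 days of MS023 followed by Dex, 7.23% of the shortest bin were higher and 12.2% lower, and 48 of the 343 genes were higher and 62 lower. CEBPB, JUND and H3C10 have 1 exon block each. What part gene length, counting over exons or the handling of these libraries had in these rises was not tested.

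**Figure D3:**
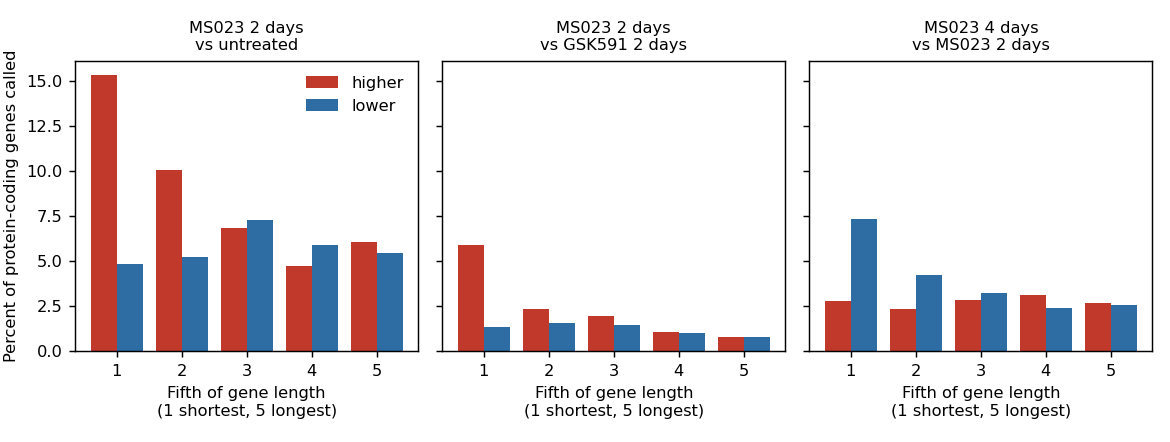
Percent of 12236 protein-coding genes called higher (red) or lower (blue) by gene length in 5 equal bins, in 3 comparisons. Against untreated cells the higher share is 15.4% in the shortest bin and 6.05% in the longest, and in 4 against 2 days the shortest bin is more often lower than higher.

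At the same dose and time, MS023 and GSK591 differed in 617 genes (2.69%), 362 higher (1.58%) and 255 lower (1.11%) with MS023. With total counts as the only scaling the split was 1060 and 48, DESeq2 called 313, and fits without 1 of the 4 libraries called 223 (without MS023 replicate 2), 226 (without GSK591 replicate 1), 240 (without GSK591 replicate 2) and 271 (without MS023 replicate 1). Interferon-stimulated genes were among the largest differences. OASL was at 1.21 and 1.03 CPM with GSK591 (log2 difference 3.16, SE 0.35, adjusted p = 1.82e-08), IFIT2 at 2.29 and 1.38 (log2 difference 2.26, SE 0.30, adjusted p = 1.94e-06) and IFIT1, chosen as a list member, at 2.15 and 2.07 (log2 difference 1.82, SE 0.29, adjusted p = 5.10e-05). GREM1, a secreted antagonist of bone morphogenetic proteins, had 11.8 and 11.4 CPM in untreated cells, 28.0 and 23.9 with MS023 and 7.93 and 6.67 with GSK591 (log2 difference 1.83, SE 0.19, adjusted p = 4.54e-09). LILRB3 (2.25) and LILRA6 (2.49), immune receptor genes with near-identical sequence, were also higher with MS023. The genes furthest below GSK591 were CPM, which encodes carboxypeptidase M (-1.94), KIAA1614 (-1.76), the chaperone gene DNAJB5 (5.77 and 5.45 CPM with MS023 and 18.0 and 17.9 with GSK591, log2 difference -1.68, SE 0.17, adjusted p = 1.71e-09) and the adenylyl cyclase gene ADCY4 (-1.63). For other genes the inhibitors are given side by side, since both are compared with the same untreated libraries: the log2 fold change was 3.04 with MS023 and 2.04 with GSK591 for FGA, 2.44 and 1.42 for AXIN2, 1.69 and 1.16 for CEBPB, and -1.89 and -1.20 for DIO2. The direct difference was called for FGA (1.00), AXIN2 (1.02) and CEBPB (0.53). It was not called for DIO2 (-0.69, 95% interval -1.18 to -0.20, adjusted p = 0.139 in edgeR's test), which does not show that the compounds act alike there. This interval is not adjusted for the number of genes. Of the 37 interferon-stimulated genes 8 were called in the direct comparison, of the 28 p53 targets 10 and of the 46 hnRNP genes 1. Against untreated cells the p53 targets had a median of -0.05 with MS023 and 0.46 with GSK591. The medians of the interferon-stimulated genes were 0.45 and 0.02.

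Between 2 and 4 days of MS023, 1126 genes differed (4.91%), 509 higher (2.22%) and 617 lower (2.69%) at 4 days. With total counts as the only scaling 52 were higher and 27 lower, DESeq2 called 482, and fits without 1 of the 4 libraries called 278 (without the first 2-day library), 343 (without the second 4-day library), 346 (without the first 4-day library) and 403 (without the second 2-day library). Of the 37 interferon-stimulated genes 15 were higher at 4 days and none lower, 13 of them not called at 2 days. MX1 was at 5.57 and 4.52 CPM at 2 days and 15.5 and 18.1 at 4 days (log2 difference 1.73, SE 0.22, adjusted p = 5.78e-07) and IFI27 at 2.35 and 2.49 and 8.31 and 7.26 CPM (log2 difference 1.68, SE 0.30, adjusted p = 2.41e-04). OASL (0.34, 95% interval -0.13 to 0.81) and IFIT2 (-0.16, 95% interval -0.62 to 0.30) were not called. MUC5B went from 23.1 and 24.7 to 103 and 91.5 CPM (log2 difference 2.03, SE 0.17, adjusted p = 2.85e-08) and CREB3L1, a transcription factor of secretory cells, differed by 1.41. Lower at 4 days were CCN5 (-1.44), LILRA6 (-1.28), the phosphatase gene DUSP5 (-1.19) and DEPP1, a FOXO target, which had risen at 2 days (6.23 and 7.36 CPM untreated, 19.8 and 20.9 at 2 days, 8.39 and 9.61 at 4 days, log2 difference -1.18, SE 0.16, adjusted p = 2.20e-06). At 7 days OASL was at 0.708 and 0.724 CPM and IFIT1 at 1.42 and 1.59 CPM, while AXIN2 was at 11.7 and 11.5 and NUPR1 at 38.6 and 44.2 CPM.

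**Figure D4:**
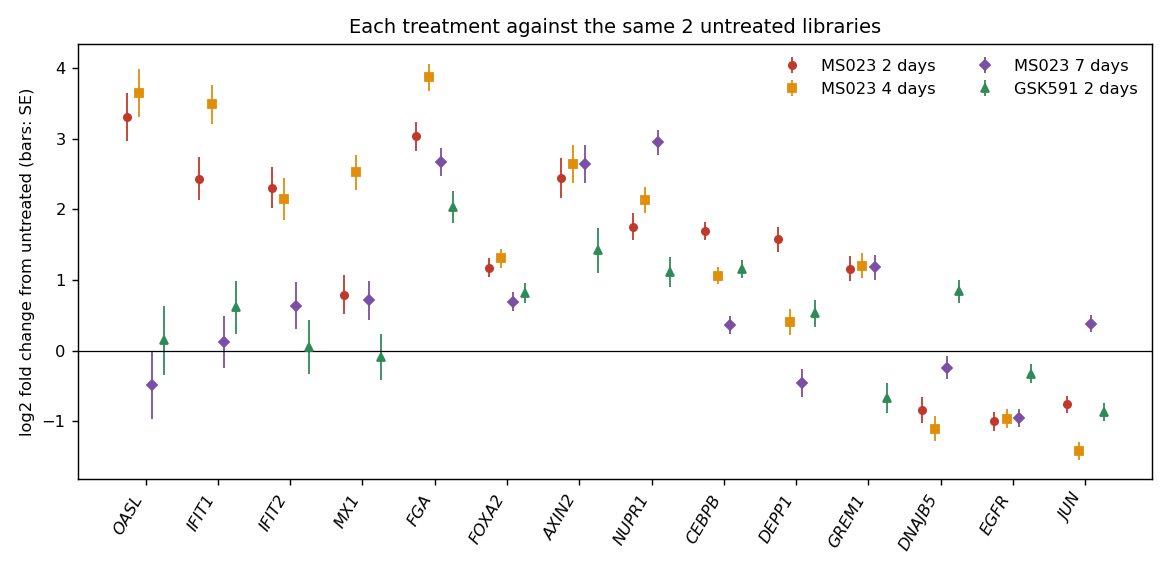
Log2 fold change (bars, SE) of 14 genes for 2, 4 and 7 days of MS023 and 2 days of GSK591, each against the same 2 untreated libraries. With MS023 at 2 and 4 days OASL, IFIT1 and IFIT2 lie above 2, and with GSK591 they lie at 0.15, 0.61 and 0.05, none called, whereas AXIN2 is above 0 in all 4.

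Comparisons that share no library with the main one were also read. When Dex was given for 3 h to cells pretreated with MS023 for 7 days, and compared with Dex for 3 h alone, 2645 genes were called (11.5%), 5.43% of those tested higher and 6.11% lower. Of the 2381 genes called at 2 days, 1547 (65.0%) had the same sign there, beside 55.3% of all genes tested. The count of 2645 was 1258 to 1548 without 1 of its 4 libraries, and of the 631 called in both, 485 (76.9%) changed in the same direction, beside 1725 (65.2%) of all 2645, whether or not they were called at 2 days. AXIN2 (2.62), NUPR1 (3.01), EBF4 (2.20), GREM1 (2.17), FGA (1.09) and NPTX1 (-2.30) were called there in the direction of day 2. OASL (-1.09, adjusted p = 0.152), IFIT1 (0.13) and CEBPB (0.01) were not. With MS023 given together with Dex for 3 h, 45 genes were called (0.196%, with 0.135% higher and 0.0611% lower), 12 of them among the 2381, and 49.2% of the 2381 had the sign of day 2, beside 47.8% of all genes. The second library of that group stands apart, with a replicate correlation of 0.926. Without that library 1 gene was called, without the first library of that group 2388, without Dex replicate 1 there was 1 and without Dex replicate 2 there were 0 (2667 at an unadjusted p under 0.05; DESeq2 on all libraries called 60). Both contrasts also differ from the main one in holding Dex. With total counts as the only scaling the calls were 13079 higher and 48 lower for the first contrast and 120 and 2 for the second, in place of 1244 and 1401 and of 31 and 14.

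**Figure D5:**
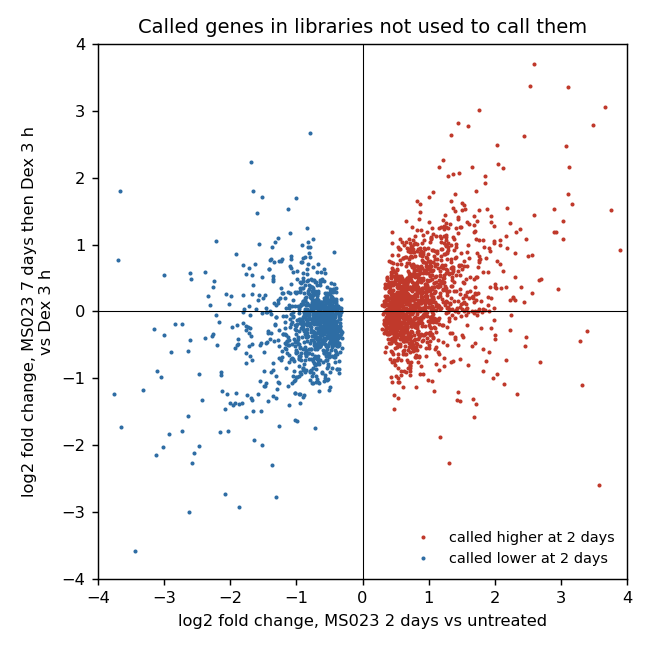
Each point is a gene called at 2 days, with its log2 fold change at 2 days (x axis) and after 7 days of MS023 followed by 3 h of Dex against Dex alone (y axis), in libraries that the first comparison does not use. Of the 2381 genes 1547 have the same sign on both axes, and 16 points fall outside the plotted range of 4.

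The authors' deposited table of this comparison lists 28873 genes, with 2730 called at its adjusted p, 1301 of them higher. Of 15220 tested genes matched by symbol, 1813 were called from the counts and 2443 in the authors' deposited table, and 833 in both (45.9% of the former and 34.1% of the latter), 819 of them in the same direction. The authors' deposited table gives log2 fold changes of 3.29 for OASL, 3.31 for FGA, 2.46 for AXIN2 and -1.65 for DIO2, near those from the counts. Of the 136 genes named here as called, 117 are listed in the authors' deposited table, where 93 were called in the same direction, 21 were not called and 3 (TBC1D10C, MUC6 and SEZ6) have no adjusted p. For those 3 the authors' deposited table has log2 fold changes of -0.01, -0.03 and -0.02, with no call to compare. Among those not called, the authors' deposited table has 0.01 for ATP6V0C, -0.05 for EMC7, -0.14 for CCNB2, 0.09 for CYP51A1, 0.09 for YAP1, 0.10 for SNAI1, 0.02 for DDAH2, 0.08 for CENPA and 0.18 for HERC6, nearer to 0 than the values from the counts. Some genes given above as not called are called in the authors' deposited table. Among them are CDH1 (0.70), NQO1 (0.83), MYC (0.45), HMOX1 (0.44), NFKB1 (-0.60) and VIM (-0.37). Others, such as ATF4 (0.19), CDKN1A (0.19) and MDM2 (-0.15), are called in neither. The receptor gene NR3C1, 0.29 from the counts and not called, is at -0.30 and called in the authors' deposited table. For CEBPB and MUC5B the authors' deposited table is higher, at 2.62 and 2.81.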

How the data were processed

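PRO-seq counts per gene for 30 A549 libraries were deposited by the authors as whole-number counts, made with featureCounts 2.0.1 on hg38 per the submitters' processing notes. The aligner, the feature type counted and the use of strand are not given in the sources used here. The authors' deposited table of the comparison holds a mean signal of normalized counts, a log2 fold change with its standard error and p-values per gene, per the file headers. The counts behind that table are not stated.

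Gene positions came from GENCODE 29, which matched all 58780 identifiers. Genes were filtered with filterByExpr (minimum count 10, minimum total 15), scaled by TMM and tested with edgeR 4.0.16 (R 4.3.3), quasi-likelihood, on all 15 groups of 2, so that they share 1 estimate of the spread. p-values were adjusted by Benjamini-Hochberg over 22919 genes, with calls at 0.05. DESeq2 1.42.0, other scalings, no filter, the compared groups alone, a replicate block and fits without 1 library were alternatives. The script was tested on simulated data.

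Named genes were the PRMT genes, the 12 largest rises and falls of coding genes (mean over 5 CPM, groups not overlapping), the 3 largest noncoding ones each way, called list members, and the 4 largest each way in the 2 direct comparisons. Members of lists that were not called, IFIT1 and H3C10 in the direct comparisons, RNU1-1 and the other MIR6724 copies were picked with their values in view. The members and lists were chosen with earlier results of these data known. Some genes are not reported here.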

Additional observations from a re-analysis of the deposited data

Results flagged for a closer look

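The effect of MS023 at 2 days differed from that of GSK591 at 2 days in 617 genes, by the direct test between their libraries (edgeR's quasi-likelihood test, adjusted p under 0.05). Among genes named here, the log2 difference (MS023 minus GSK591) is given in brackets. Higher with MS023 were ADM (0.66), AJUBA (0.42), AXIN2 (1.02), B2M (0.86), BTG1 (0.51), CEBPB (0.53), CHAC1 (0.59), DDIT4 (0.36), DEPP1 (1.05), DKK1 (0.50), EBF4 (1.16) and ELF3 (0.35). Also higher were FGA (1.00), GREM1 (1.83), H3C10 (0.88), HERC6 (1.36), IER2 (0.58), IFIT1 (1.82), IFIT2 (2.26), IFIT3 (1.09), JUND (0.63), KRT18 (0.42), KRT8 (0.36) and LILRA6 (2.49). Also higher were LILRB3 (2.25), NR0B1 (0.94), NUPR1 (0.64), OAS3 (0.54), OASL (3.16), PARP9 (1.10), PHLDA1 (0.60), SLC1A5 (0.47), SNHG19 (0.55), TNXB (0.72) and ZFP36 (0.58). Lower with MS023 were ADCY4 (-1.63), CCNB2 (-1.24), CDKN1A (-0.73), CPM (-1.94), DNAJB5 (-1.68), EGFR (-0.68), FP236383.1 (-0.93), FP671120.1 (-0.95), KIAA1614 (-1.76), MDM2 (-0.88), SEZ6 (-0.90) and SF3A2 (-0.74). Also lower were TBC1D10C (-1.40) and TPM1 (-0.46). Such a difference can come from either inhibitor: CDKN1A and MDM2 were not called for MS023 against untreated cells.

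Between 2 and 4 days of MS023 the same test called 1126 genes, with the log2 difference (4 days minus 2 days) in brackets. Higher at 4 days were ANGPTL4 (0.55), ATP6V0C (1.07), COL4A1 (0.86), CP (0.82), CPM (1.21), CREB3L1 (1.41), CYP51A1 (0.96), EBF4 (0.66), FGA (0.84), FGL1 (1.33), FP236383.1 (0.68) and FP671120.1 (0.75). Further genes higher at 4 days were IFI27 (1.68), IFIT1 (1.05), MDM2 (0.39), MUC5B (2.03), MX1 (1.73), OAS3 (1.03), PARP9 (0.90) and SNHG9 (1.03). Lower at 4 days were ACTB (-0.76), AJUBA (-0.50), ATF4 (-0.39), CCN1 (-0.54), CCN5 (-1.44), CEBPB (-0.63), DDIT4 (-0.48), DEPP1 (-1.18), DUSP5 (-1.19), FOSL1 (-0.47), FZD2 (-0.60) and HEXIM1 (-0.49). Further genes lower at 4 days were HMOX1 (-0.78), HNRNPA1 (-0.38), IER2 (-0.51), JUN (-0.66), KRT18 (-0.55), KRT7 (-0.41), KRT8 (-0.50), LILRA6 (-1.28), LILRB3 (-1.02), MAVS (-0.39), MIR6724-3 (-1.94) and NEU1 (-0.76). Further genes lower at 4 days were NPTX1 (-1.98), NR0B1 (-0.45), PABPN1 (-0.43), RNA5-8SN2 (-1.07), SGK1 (-0.70), SLC1A5 (-0.45), SNAI1 (-0.60), SNHG19 (-0.77), SPRY2 (-0.54), TGFBI (-0.78), TPM1 (-0.42) and TRIB3 (-0.43). Further genes lower at 4 days were VIM (-0.77) and ZFP36 (-0.58).

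Both comparisons use the 2 MS023 libraries of day 2, so a gene that appears in both is not seen independently. Cell passage, day and handling of the libraries are not labelled, and their part in these differences was not tested.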

How the results depend on the processing

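Fits of 2 against 1 library assume that the lone library varies like the other groups. In the main comparison (2381 genes), total counts as the only scaling gave 9228 calls, DESeq2 1344, a fit of the compared groups alone 3952 and fits without 1 library 964 to 2983, the highest without the second library of MS023 with Dex, which is outside the comparison, and 1261 the next. The count of called list members (201) was 444 with total counts, 325 with the groups alone and 93 to 254 without 1 library, the highest again without that one. For MS023 against GSK591 (617) the values were 1108 with total counts, 313 with DESeq2, 1106 with the groups alone and 223 to 271 without 1 library. For 4 against 2 days (1126) they were 79, 482, 2539 and 278 to 403, and 1828 when the share of processed pseudogenes entered as a covariate. For MS023 with Dex against Dex (45) they were 122 with total counts, 508 with no filter, 0 with the groups alone (891 at an unadjusted p under 0.05, and DESeq2 on all groups called 60), 2 with the covariate and 0 to 2388 without 1 library. For 7 days of MS023 then Dex against Dex (2645) they were 13127 with total counts, 1364 with DESeq2 and 1258 to 1548 without 1 library. The cause was not tested, beyond the smaller number of libraries in the fits that leave some out.

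With total counts as the only scaling, 11 of 136 named genes called in the main comparison changed sign: PRMT1 (0.35), PRMT3 (0.15), HNRNPA1 (0.25), SRSF7 (0.29), LUC7L (0.26), SNRPG (0.066), RRM2 (0.081), BIRC5 (0.11), FOSL1 (0.16), CCN5 (0.14) and KRT7 (0.29). PRMT7 (0.59), MDM2 (0.54) and RNA5-8SN2 (0.55), not called in the main comparison, were above 0 and called there. No other alternative changed the sign of a named called gene. Without mitochondrial and ribosomal RNA genes in the fit, all 135 named calls that remained were kept. Of the 136, 87 kept their call in all 4 fits without 1 library and 13 lost it in all 4. With no filter 7 were lost (PRMT1, IRF9, EIF5B, SYNE1, COL5A2, EPCAM and KRT8). With DESeq2 12 were lost of the 133 that had an adjusted p there. With the share of processed pseudogenes as a covariate 3 were lost (DUSP5, IRF1 and KLF5). The covariate and the fit without the second library of MS023 with Dex (2983 calls) were chosen after seeing the data.

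Whether replicate numbers pair the samples is not labelled. Deviations of same-numbered MS023 and untreated libraries correlated at -0.044 over 11117 genes. Over all 105 pairs of groups this value ran from -0.46 to 0.50, so a single value cannot decide the pairing. With a replicate block the counts were 2462 in the main comparison, 655 against GSK591, 1209 for 4 against 2 days, 114 for MS023 with Dex and 2758 for 7 days then Dex, and 2 of the 136 named calls were lost. With 2 libraries a group and 3135450 to 3314381 nuclear counts each, depth and number limit small changes and genes with few counts most.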
